A study of Mus musculus with 19 samples.

Results

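The genes on either side of Wiz on mouse chromosome 17 were examined, as all genes other than Wiz whose annotated GRCm38 start lies between 30.4 and 33.9 Mb of that chromosome. Of the 41388 gene identifiers with counts, 96 met this rule, 41 of them on the centromere side of Wiz and 55 on the telomere side. They comprised 69 protein-coding genes and 27 pseudogenes and non-coding RNA genes, and their 5′ ends lay between 1765.1 kb before and 1501.2 kb beyond that of Wiz (chr17:32354055-32389439, minus strand). The rule uses position alone, although the interval was chosen with earlier results of these data known.

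RNA-seq of polyA RNA was available for 16 libraries from mice of the FVB strain that were either Wiz+/+ or heterozygous for MommeD30, a loss-of-function allele of Wiz from a chemical mutagenesis screen. Whole brains were taken from male embryos at E13.5 (3 Wiz+/+ and 3 Wiz MommeD30/+) and from female embryos at E13.5 (2 and 2), and the cerebellum was taken from adult males at 56 days (3 and 3). Mice of both genotypes descend from Line3, an FVB/NJ line with a multicopy GFP transgene driven by human alpha-globin regulatory sequences, which the breeding scheme gives to wildtypes and heterozygotes alike. The allele was kept by crossing within this background, and a heterozygote inherits the stretch of chromosome 17 beside the allele with it. The labels number the samples but do not say whether they were littermates, and p-values measure only the spread between these samples.

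Wiz is a widely interspaced zinc finger protein that works with the histone methyltransferases G9a and GLP, and it has been found at sites bound by CTCF, a protein involved in the folding of chromosomes into loops. A mutation made by a chemical mutagen is passed on together with the neighbouring genes on its chromosome copy, and genes beside a regulated locus may share enhancers or domains with it. The flanking genes are therefore the place where local effects of the allele, or of the haplotype linked to it, can be looked for. The stretch holds a pair of A-kinase anchoring protein genes, a cluster of Cyp4f genes for fatty acid hydroxylases of the cytochrome P450 family, and a cluster of genes for C2H2 zinc finger proteins, many of which in mammals carry a repressive KRAB domain.

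Between 16386029 and 50459755 reads per library were counted on genes, and the second Wiz+/+ male brain had the fewest. Pearson's r between replicates, across genes, was at least 0.997. Cerebellum markers summed to 4965 to 5253 CPM (counts per 1000000 counted reads, scaled by the TMM method) in the cerebellum libraries and to 59.6 to 76.5 CPM in the brains, while embryonic brain markers summed to 95.4 to 127 CPM and 2466 to 2830 CPM. Markers of blood, mostly haemoglobin genes, differed with genotype in the cerebellum, at 160 to 250 CPM in Wiz+/+ and 283 to 522 CPM in Wiz MommeD30/+ libraries. Embryonic brain markers also differed there, at 114 to 127 CPM in Wiz+/+ and 95.4 to 109 CPM in Wiz MommeD30/+ libraries. Choroid plexus markers summed to 1024 CPM in 1 Wiz MommeD30/+ cerebellum and to 1893 to 2167 CPM in the other cerebellum libraries. In whole tissue, fewer cells of a type and less RNA per cell cannot be told apart.

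Wiz itself was lower in every Wiz MommeD30/+ library. In the cerebellum it had 105, 104 and 105 CPM in Wiz+/+ and 72.0, 72.2 and 75.0 CPM in Wiz MommeD30/+ mice. Male brains had 174, 189 and 178 CPM against 112, 119 and 116 CPM, and female brains 177 and 184 CPM against 123 and 121 CPM. The genotypes did not overlap in any of the 3 sets, with log2 fold changes of -0.50 for the cerebellum, -0.63 for male brains and -0.57 for female brains (adjusted p = 9.90e-08, 1.30e-05 and 0.0140, edgeR's quasi-likelihood test). The female call was lost without the first Wiz MommeD30/+ embryo (-0.59, adjusted p = 0.424, edgeR) or the second (-0.56, adjusted p = 0.313, edgeR). These values are the yardstick for the genes beside it. As the limits used here for a call were an adjusted p of at most 0.05 with a fold change under 0.7 or over 1.3, Wiz passed the p but not the fold limit in the cerebellum, with a fold change of 0.706.

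The nearest genes on the centromere side, Akap8l and Akap8, showed no such decrease. On the telomere side the low-count genes Rasal3 and Cyp4f39 were too imprecise in female brain to set apart from the decrease of Wiz. So was Cyp4f39 in male brain and over all brains, and it could not be tested in the cerebellum. Akap8l (chr17:32321424-32350607, minus strand), which lies 38.8 kb on the centromere side and encodes a nuclear relative of the A-kinase anchoring proteins, had 116, 110 and 110 CPM in Wiz+/+ and 113, 105 and 113 CPM in Wiz MommeD30/+ cerebellum. In male brain it had 65.8, 65.6 and 65.4 CPM against 66.0, 64.5 and 62.3 CPM, and in female brain 65.2 and 67.6 CPM against 62.0 and 68.6 CPM. The genotypes overlapped in all 3 sets. Its log2 fold changes were -0.00 (95% interval -0.08 to 0.08), -0.03 (-0.11 to 0.05) and -0.03 (-0.19 to 0.12) in cerebellum, male brain and female brain. All 3 intervals lie above the decrease of Wiz in the same libraries. The 250 bases before the RefSeq start of this nearest measured gene on the centromere side (GRCm38, chr17:32350578-32350827, minus strand) follow, with capitals for the CCAAT box in either orientation (CCAAT or ATTGG) and for the GC box (GGGCGG or CCGCCC).
Akap8l upstream: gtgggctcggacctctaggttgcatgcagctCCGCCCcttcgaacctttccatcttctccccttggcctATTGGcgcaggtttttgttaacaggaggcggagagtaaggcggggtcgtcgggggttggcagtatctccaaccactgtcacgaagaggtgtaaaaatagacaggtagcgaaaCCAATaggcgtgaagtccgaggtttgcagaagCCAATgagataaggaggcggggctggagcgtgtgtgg

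Akap8 (chr17:32303672-32321238, minus strand), the A-kinase anchoring protein that binds chromatin in the nucleus, starts 68.2 kb from Wiz. It had 196, 196 and 192 CPM in Wiz+/+ and 204, 205 and 199 CPM in Wiz MommeD30/+ cerebellum, which did not overlap and differed by 0.08 on the log2 scale (95% interval 0.01 to 0.14, adjusted p = 0.154, edgeR). Its differences in the brains were smaller, at -0.01 in males and 0.04 in females on the log2 scale. It passed the test in none of the genotype comparisons.

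On the telomere side the first measured gene was Rasal3 (chr17:32390659-32403583, minus strand), a regulator of Ras signalling known from blood cells, whose 5′ end is 14.1 kb from that of Wiz. It was low, with 28 to 41 counts in Wiz+/+ and 27 to 46 counts in Wiz MommeD30/+ cerebellum. Its log2 fold changes were 0.09, 0.09 and -0.34 in cerebellum, male brain and female brain. The upper end of the female interval was 0.31 and its lower end lay beyond the decrease of Wiz, so that a decrease as large as that of Wiz could not be told from no change there. Cyp4f39 at 63.3 kb was lower still, at no more than 0.11 CPM in the cerebellum, where it could not be tested, and 0.12 to 0.38 CPM in the brains. Its counts were 20, 2 and 11 in Wiz+/+ and 11, 12 and 8 in Wiz MommeD30/+ male brain, which overlapped, and 14 and 16 against 9 and 9 in female brain, which did not. The log2 fold changes were -0.27 (95% interval -1.05 to 0.52) in males, -0.74 (-1.67 to 0.18) in females and -0.46 (-1.02 to 0.10) over all brains, none past the test (adjusted p = 0.878, 0.805 and 0.513, edgeR). The female value was below that of Wiz, and each of these intervals held both 0 and the decrease of Wiz in the same libraries. Cyp4f17 at 116.6 kb and Cyp4f16 at 147.1 kb had log2 fold changes of 0.19 and 0.07 in cerebellum, -0.01 and -0.00 in male brain, and -0.04 and 0.08 in female brain. Between Wiz and these genes, Pglyrp2, a peptidoglycan recognition protein gene, had only 10 counts over all libraries. The small RNA gene Gm22201 and the non-coding Gm26858, which both overlap Wiz on the opposite strand, had 0 counts in all 16 libraries. By counting error alone this allows up to 3 counts or 0.183 CPM in the smallest library. How reads shared with Wiz were counted is not given in the sources used here, so the 0 counts may not bound their expression.

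**Figure D1:**
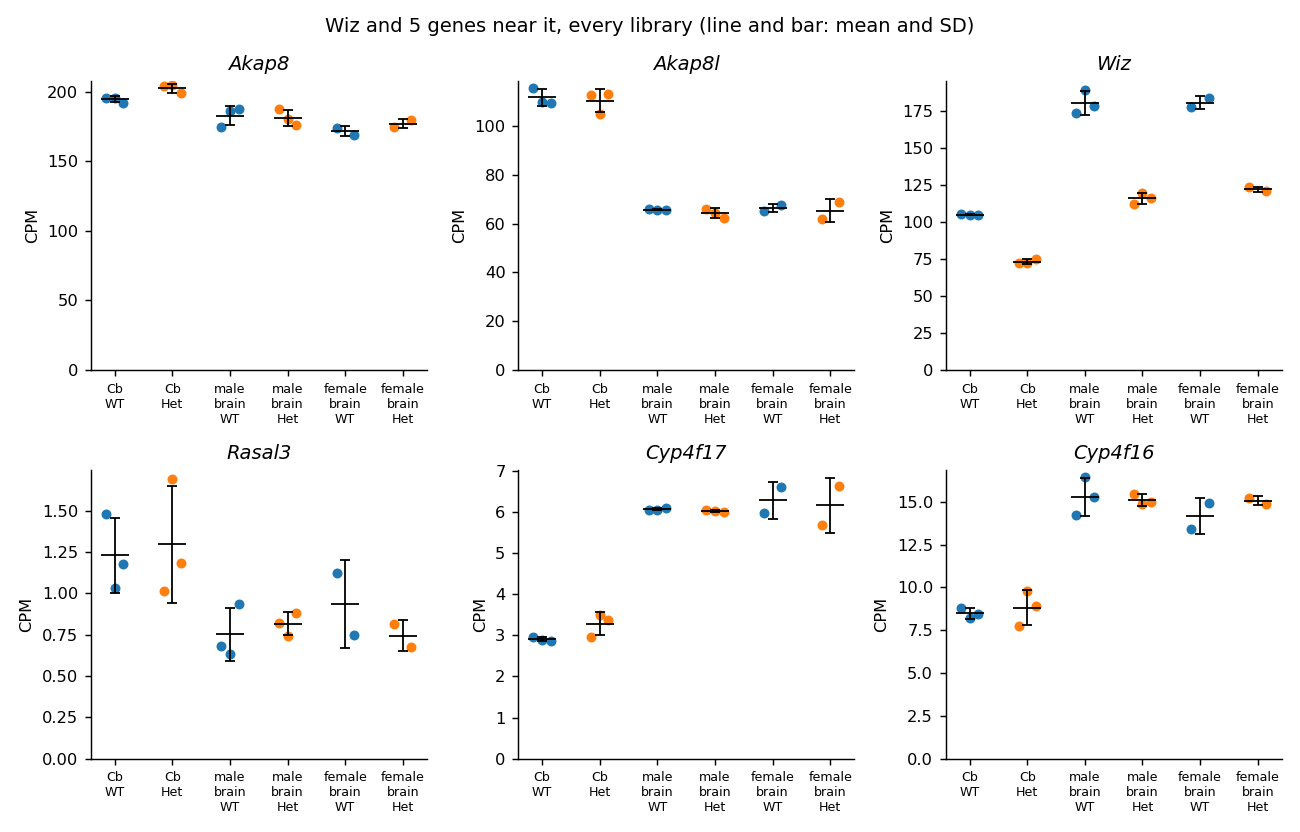
CPM (y axis, from 0) in every library for Wiz and for Akap8, Akap8l, Rasal3, Cyp4f17 and Cyp4f16 beside it, with groups on the x axis (Cb is cerebellum, WT is Wiz+/+ in blue, Het is Wiz MommeD30/+ in orange), and black lines and bars for the mean and SD. Wiz falls from 105 to 73.0 CPM in the cerebellum with no overlap, while the genotypes of Akap8l overlap in all 3 tissue and sex sets.

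Not all 96 genes could be tested. In all 16 libraries 13 genes had 0 counts, most of them small RNA genes, and a further 21 had counts that stayed below the filter on low counts in every comparison, with at most 93 counts over all libraries. Among these were the trefoil factor genes Tff1 (0 counts) and Tff2 (2 counts), the incretin receptor gene Glp1r (93 counts), the lens crystallin gene Cryaa (7 counts) and the olfactory receptor genes Olfr55, Olfr239, Olfr1564 and Olfr63 (19, 5, 63 and 0 counts). The other 62 genes were tested in at least 1 genotype comparison and 53 of them in all 4. Of the 96 genes, 33 share exonic bases with another annotated gene, and whether reads were counted by strand is not given in the sources used here, so reads of such genes cannot be told apart. Levels per length of exon were highest in Wiz+/+ cerebellum for Rab11b, a GTPase of membrane recycling (33.6 ± 1.2 CPM per kb, SD, n = 3), and Hnrnpm, a splicing regulator (30.7 ± 0.4). In Wiz+/+ male brain the ribosomal protein gene Rps28 stood first with 66.6 ± 2.8 CPM per kb, ahead of Hnrnpm with 42.6 ± 1.1 and Rab11b with 33.6 ± 1.8. Ribosomal protein genes such as Rps28 commonly have processed copies elsewhere in the genome, so its count is uncertain.

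In the adult cerebellum, 56 flanking genes were tested and 1 passed both limits, Tmprss3, which was higher in Wiz MommeD30/+ mice, where 0.832% of all genes tested passed, with 0.532% called as higher. By the adjusted p alone 2 passed, Tmprss3 and Zfp871, both higher, against 5.25% of all genes, with 2.69% as higher. An unadjusted p under 0.05 was reached by 13 of the 56 against 19.9% of all genes, and 13 had genotypes that did not overlap, against 22.6%. DESeq2's Wald test passed 1 gene by both limits and 2 by the adjusted p alone. The median log2 fold change of the 56 genes was 0.03, against -0.00 over all genes, and the median absolute value was 0.08 against 0.07.

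In male E13.5 brain, 0 of 57 flanking genes passed edgeR's test, where 0.184% of all genes passed with the fold limits and 0.196% without. An unadjusted p under 0.05 was reached by 3 (Rps28, Cbs and Zfp955a) against 8.45% of all genes, and by 3 in DESeq2, which called 0. Genotypes did not overlap for 9 of the 57, against 12.3% of all genes. In female E13.5 brain, 0 of 58 passed edgeR's test (0.111% of all genes), 1 had an unadjusted p under 0.05 (Pdxk-ps, against 6.4% of all genes) and DESeq2 called 0, with 0 under an unadjusted p of 0.05. Pdxk-ps had 3 and 7 counts in Wiz+/+ and 16 and 11 in Wiz MommeD30/+ female brain, a log2 fold change of 1.40. There 18 of 58 had genotypes that did not overlap, against 36.3% of all genes. When the 10 brains were fitted together with sex as a covariate, 0 of 59 passed (0.346% of all genes, or 0.477% by the adjusted p alone), 3 reached an unadjusted p under 0.05 against 11.8% of all genes, and DESeq2 called 0, with 4 under 0.05. The flanking genes had median log2 fold changes of -0.01 in males, -0.01 in females and 0.00 when all brains were fitted.

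What size of change the data could have missed is shown by the intervals. In the cerebellum, the 95% interval lay wholly inside the fold limits of 0.7 and 1.3 for 40 of 56 genes. The corresponding numbers were 42 of 57 in male brain, 41 of 58 in female brain and 47 of 59 in all brains. A decrease as large as that estimated for Wiz lay outside the interval for 53 of 56 genes in the cerebellum, all except Dnah8, Myo1f and Rsph1. It lay outside for 53 of 57 in male brain, all except Cbs, Cyp4f39, Gm4134 and Hsf2bp. In female brain, with 2 mice per genotype, it lay outside for 46 of 58 genes.

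**Figure D2:**
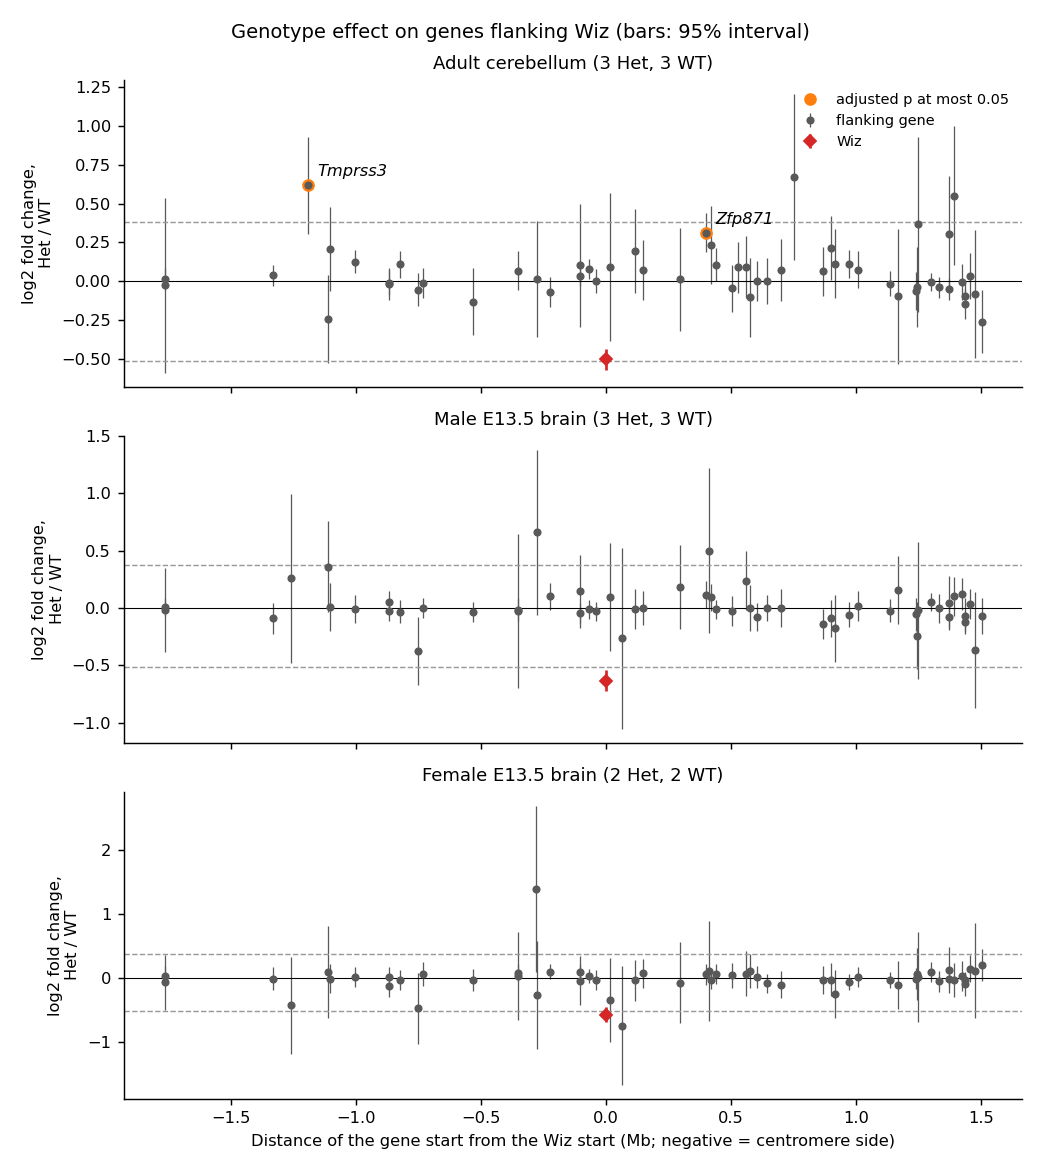
Log2 fold change between Wiz MommeD30/+ (Het) and Wiz+/+ (WT) libraries (y axis, with 95% interval) of each tested flanking gene against the distance of its 5′ end from that of Wiz (x axis, in Mb, negative on the centromere side) in 3 panels, with Wiz in red and dashed lines at fold changes of 0.7 and 1.3. Wiz lies at -0.50, -0.63 and -0.57, and most flanking genes lie close to 0. Exceptions in the female panel include the low-count genes Rasal3 (-0.34) and Cyp4f39 (-0.74) near Wiz and Pdxk-ps (1.40), 282.1 kb away. Tmprss3 (0.62) and Zfp871 (0.31) are in orange in the cerebellum.

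With both sides of Wiz pooled, the median genotype differences by distance lay between -0.19 and 0.10 on the log2 scale. The 7 genes whose 5′ ends lie within 0.1 Mb of Wiz included 3 that were tested in the cerebellum, with a median log2 fold change of 0.08. For the 7 tested at 0.1 to 0.3 Mb, the 22 at 0.3 to 1 Mb and the 24 beyond 1 Mb the medians were 0.03, 0.07 and -0.01. In male brain the medians of the 4 bins, from near to far, were -0.02, 0.10, -0.02 and -0.00, and in female brain they were -0.19, 0.02, -0.00 and 0.01. The first of the female bins holds only Akap8, Akap8l, Rasal3 and Cyp4f39. In female brain Rasal3 was low, with 33 to 56 counts, and Cyp4f39, with 9 to 16, was near the filter on low counts. Rasal3 and Cyp4f39 were the only tested genes within 0.1 Mb on the telomere side. Their median was -0.54 in female brain and -0.28 over all brains, against 0.00 and -0.01 for Akap8 and Akap8l on the centromere side. Spearman's rho between the absolute log2 fold change and the distance, across genes, was 0.05 in the cerebellum (56 genes), 0.02 in male brain (57) and -0.18 in female brain (58). With the mean level it was -0.33, -0.40 and -0.42, so that the scatter was wider for genes with fewer reads. Genes are not independent replicates, and all genes of a comparison share the same libraries.

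The stretches of equal length on either side are set beside these values, and no difference between stretches was tested. On the centromere side of the interval, from 26.9 Mb, 60 genes were tested in the cerebellum and 0 passed both limits in edgeR or DESeq2, with 3 past the adjusted p alone and 13 with an unadjusted p under 0.05. On the telomere side, up to 37.4 Mb, where the major histocompatibility complex lies, 1 of 131 passed both limits and 5 the adjusted p alone. Their median log2 fold changes were -0.03 and -0.07, beside 0.03 for the genes flanking Wiz. Positive log2 fold changes were found for 25 of 60 and 39 of 131 genes there and for 33 of 56 flanking genes, against 48.7% of all genes. In male brain 0 genes of either stretch passed edgeR's or DESeq2's limits, with 4 of 64 and 5 of 131 at an unadjusted p under 0.05 in edgeR. In female brain 0 passed either, with 4 of 65 and 6 of 137. Over all brains 1 of 141 genes of the telomere-side stretch passed both limits in edgeR, and 0 of 66 on the other side.

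Tmprss3 (chr17:31179265-31198977, minus strand) encodes a transmembrane serine protease needed for hearing, and its 5′ end is 1190.5 kb from that of Wiz. In the cerebellum it had 4.18, 3.14 and 2.75 CPM (116, 85 and 77 counts) in Wiz+/+ and 4.77, 5.89 and 4.63 CPM (127, 160 and 129 counts) in Wiz MommeD30/+ mice. Every Wiz MommeD30/+ library was above every Wiz+/+ library, although the highest Wiz+/+ value was close to the lowest Wiz MommeD30/+ values. The log2 fold change was 0.62 (SE 0.15, 95% interval 0.31 to 0.93, adjusted p = 0.0216, edgeR). The call was lost without the first Wiz MommeD30/+ mouse (0.65, adjusted p = 0.0659), the second (0.50, adjusted p = 0.0824) or the third Wiz+/+ mouse (0.49, adjusted p = 0.136, edgeR in each case). In the brains Tmprss3 had 0 to 3 counts per library and could not be tested there. The 250 bases before its RefSeq start (GRCm38, chr17:31198975-31199224, minus strand) hold neither a GC box nor a CCAAT box on either strand, and so carry no capitals.
Tmprss3 upstream: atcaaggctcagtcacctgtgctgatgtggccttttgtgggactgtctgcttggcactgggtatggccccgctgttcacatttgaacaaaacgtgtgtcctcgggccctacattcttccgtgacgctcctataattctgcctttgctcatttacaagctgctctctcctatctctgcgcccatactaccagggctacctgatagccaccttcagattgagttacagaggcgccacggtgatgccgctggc

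Zfp871 (chr17:32765496-32788287, minus strand) opens the cluster of zinc finger genes, 398.8 kb from Wiz on the telomere side. In the cerebellum it had 49.1, 59.5 and 49.8 CPM in Wiz+/+ and 65.8, 66.1 and 62.5 CPM in Wiz MommeD30/+ mice. The groups did not overlap, and the second Wiz+/+ mouse lay nearest to the Wiz MommeD30/+ values. The log2 fold change was 0.31 (SE 0.06, 95% interval 0.19 to 0.44, adjusted p = 0.00707, edgeR), a fold change of 1.24 that stays inside the fold limit. Without the third Wiz+/+ mouse the value was 0.27 with an adjusted p of 0.0632 (edgeR), and without the second it rose to 0.41 (adjusted p = 7.87e-05, edgeR). In male brain Zfp871 had 90.1, 75.4 and 86.6 CPM in Wiz+/+ and 94.2, 92.7 and 88.3 CPM in Wiz MommeD30/+ embryos, which overlapped, and the log2 fold change of 0.12 did not pass the test (adjusted p = 0.5999, edgeR). For female brain the value was 0.06 (adjusted p = 0.923, edgeR). The difference between the cerebellum and male brain effects was 0.20 (95% interval -0.01 to 0.40, adjusted p = 0.541, edgeR), so an effect particular to the cerebellum was not shown. Blood markers moved with genotype in the same 6 cerebellum libraries as Tmprss3 and Zfp871. Of 5 tested haemoglobin and erythroid genes, 4 passed the adjusted p as higher in Wiz MommeD30/+. Other marker lists moved too. As higher, 2 of 6 cerebellum and 1 of 5 mural cell markers passed. As lower, 3 of 5 embryonic brain, 1 of 4 oligodendrocyte and 1 of 4 endothelium markers passed. Of 4 choroid plexus and 4 microglia markers, 0 passed. The part of these lists in the Tmprss3 and Zfp871 differences was not tested. The 250 bases before the RefSeq start of Zfp871 (GRCm38, chr17:32788288-32788537, minus strand) are given with the same capitals.
Zfp871 upstream: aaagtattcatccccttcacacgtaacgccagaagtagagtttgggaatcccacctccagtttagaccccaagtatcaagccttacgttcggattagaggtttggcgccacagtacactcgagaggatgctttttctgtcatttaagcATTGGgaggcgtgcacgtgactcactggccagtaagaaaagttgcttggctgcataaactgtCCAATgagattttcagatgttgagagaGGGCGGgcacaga

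**Figure D3:**
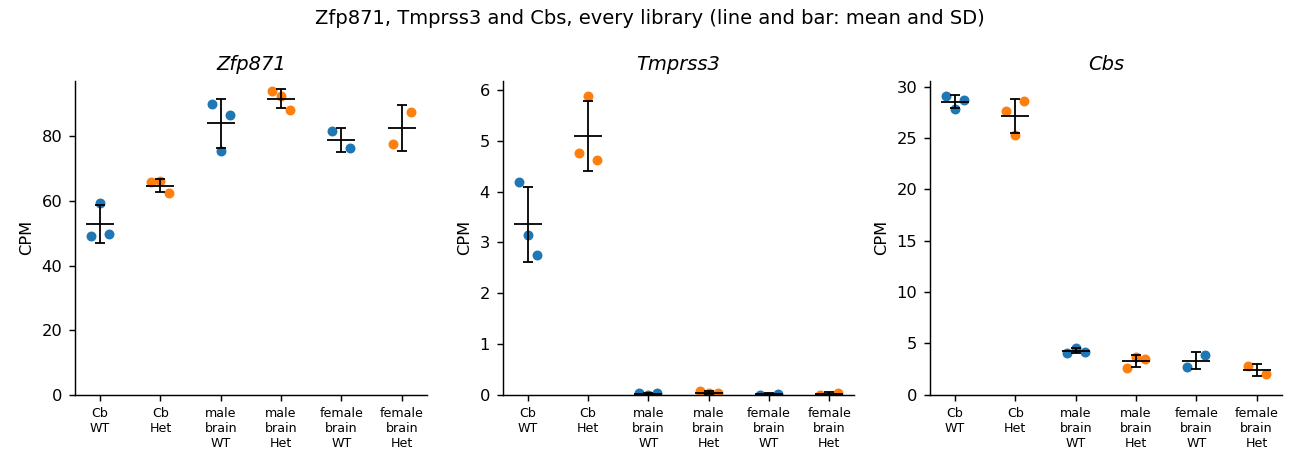
CPM (y axis, from 0) of Zfp871, Tmprss3 and Cbs in every library, by group on the x axis (Cb is cerebellum, WT is Wiz+/+ in blue, Het is Wiz MommeD30/+ in orange), with the mean and SD in black. In the cerebellum Zfp871 has 49.1 to 59.5 CPM in Wiz+/+ and 62.5 to 66.1 CPM in Wiz MommeD30/+ mice, and Cbs in the brains has at most 4.56 CPM.

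Cbs (chr17:31608894-31637238, minus strand), the enzyme that joins homocysteine and serine in the transsulphuration pathway, had the smallest p among flanking genes when all brains were fitted. Male brains had 4.09, 4.56 and 4.19 CPM in Wiz+/+ and 2.58, 3.69 and 3.51 CPM in Wiz MommeD30/+ embryos, and female brains 2.73 and 3.87 CPM against 2.79 and 1.99 CPM. The male groups did not overlap and the female groups did. The log2 fold change over all brains was -0.42 (95% interval -0.70 to -0.14), and it missed the threshold with an adjusted p of 0.234 (edgeR). In the cerebellum, where Cbs was higher at 25.3 to 29.1 CPM, the log2 fold change was -0.05 (adjusted p = 0.621, edgeR).

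Of the other genes with small p-values, Pde9a, a phosphodiesterase specific for cyclic GMP, had 60.3, 60.4 and 58.4 CPM in Wiz+/+ and 63.1, 65.8 and 64.2 CPM in Wiz MommeD30/+ cerebellum. The groups did not overlap, and the log2 fold change of 0.13 had an adjusted p of 0.0513 (edgeR). Rps28, a protein of the small ribosomal subunit, had 46.4, 43.7 and 42.7 CPM against 37.3, 39.2 and 42.2 CPM in the cerebellum, a log2 fold change of -0.14 (adjusted p = 0.0762, edgeR). The brains gave -0.12 for males and -0.03 for females, with no call. Kifc1, a kinesin of the mitotic spindle at the telomere end of the interval, had 7.93, 7.79 and 7.58 CPM against 5.55, 6.55 and 7.11 CPM in the cerebellum, a log2 fold change of -0.26 (adjusted p = 0.126, edgeR). In the same libraries embryonic brain markers, which include the dividing-cell gene Top2a, summed to 114 to 127 CPM in Wiz+/+ and 95.4 to 109 CPM in Wiz MommeD30/+ mice, with 3 of 5 tested genes past the adjusted p as lower. Their part in the Kifc1 values was not tested. Morc2b, of a family of chromatin ATPases, had 0.793, 1.44 and 0.751 CPM in Wiz+/+ and 1.16, 1.69 and 1.83 CPM in Wiz MommeD30/+ cerebellum, a log2 fold change of 0.67 (adjusted p = 0.138, edgeR). Angptl4, an inhibitor of lipoprotein lipase, had 1.08, 1.33 and 1.47 CPM against 2.36, 1.44 and 1.83 CPM, a log2 fold change of 0.55 (adjusted p = 0.146, edgeR). For both genes the genotypes overlapped at this low level.

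The zinc finger genes of the interval, 14 named Zfp and a number, with Zfp422-ps a pseudogene among them, were all measured well enough to be tested in every comparison. In the cerebellum 11 had a positive and 3 a negative log2 fold change, with a median of 0.07, where 48.7% of all genes had a positive value. Apart from Zfp871 no member passed the adjusted p, and the next were Zfp81 with 0.11 (adjusted p = 0.152) and Zfp955b with 0.21 (adjusted p = 0.235, both edgeR). Zfp81 had 39.8, 40.0 and 38.9 CPM in Wiz+/+ and 41.0, 40.8 and 44.8 CPM in Wiz MommeD30/+ cerebellum, and the groups did not overlap. In male and in female brain 6 members were positive and 8 negative, with medians of -0.02 in each, where 50% of all genes were positive in either sex, and 0 passed edgeR's or DESeq2's limits. Differences between the cerebellum and male brain effects were positive for 10 of the 14, against 49.4% of all genes, and passed the test for none. Zinc finger genes of a cluster arise by duplication and can share sequence, and how reads that fit several of them were treated is not given in the sources used here.

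**Figure D4:**
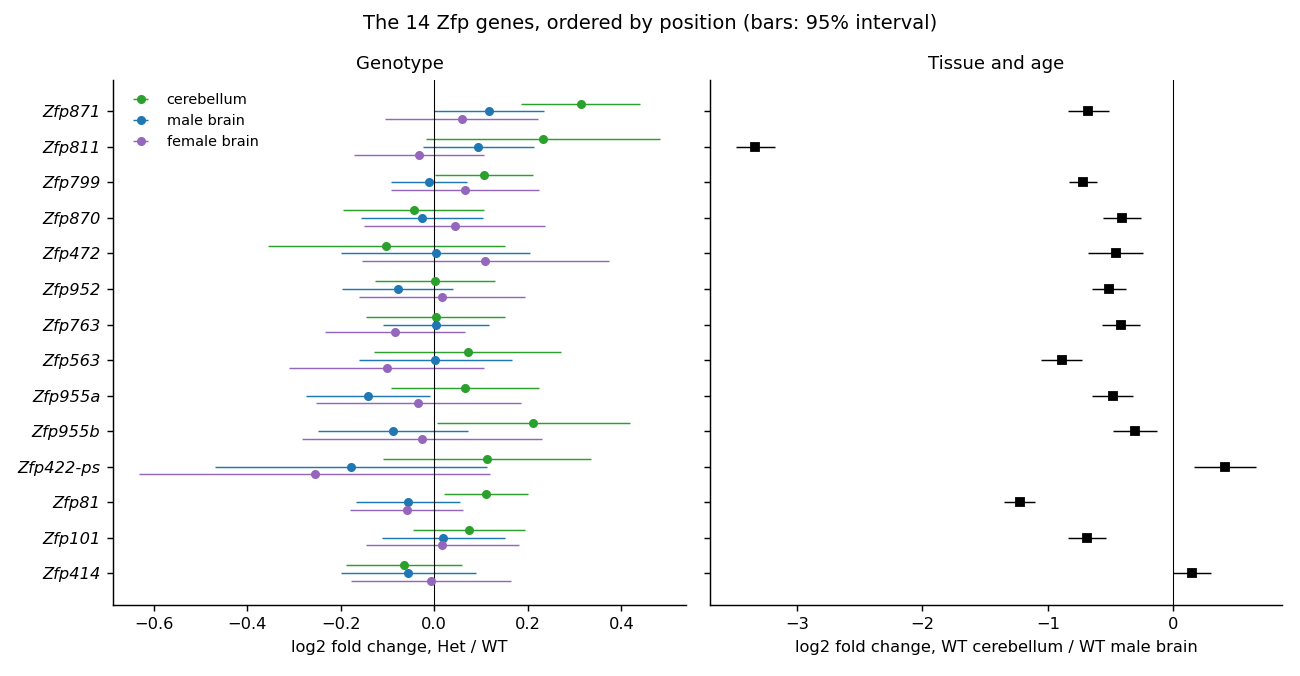
The 14 Zfp genes in order of position (y axis), with the log2 fold change (x axis) and 95% interval between Wiz MommeD30/+ (Het) and Wiz+/+ (WT) for cerebellum, male brain and female brain on the left, and between Wiz+/+ cerebellum and Wiz+/+ male brain on the right. Zfp871 in the cerebellum is at 0.31 with an interval from 0.19 to 0.44, and on the right 12 genes lie below 0, with Zfp811 at -3.33.

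The other gene groups of the interval, none of which includes Tmprss3, gave no genotype call. Of the 9 Cyp4f genes 6 were tested, with Cyp4f14 tested only in the cerebellum and Cyp4f39 only in the brains. In the cerebellum the 5 tested had positive values, from 0.01 to 0.19, and in male and in female brain 2 were positive and 3 negative, from -0.27 to 0.24 and from -0.74 to 0.08, with none past the test. The 9 genes for chromatin and RNA proteins (among them Akap8, Akap8l, Hnrnpm, Morc2b, Pknox1 and U2af1) had medians of 0.05, -0.02 and 0.05 over the 8 tested in cerebellum, male brain and female brain. The 9 metabolic genes, among them Glo1 of methylglyoxal detoxification and the complex I genes Ndufv3 and Ndufa7, had medians of 0.03, -0.01 and -0.02 over 8 tested. Of the 3 genes for neuronal signalling, Rab11b had -0.05, -0.08 and -0.01, and the kinase gene Sik1, with 12.4 ± 0.4 CPM in Wiz+/+ and 11.2 ± 2.1 CPM in Wiz MommeD30/+ cerebellum (SD, n = 3), had -0.13, -0.04 and -0.03. None of these passed the test. Of the genes listed for the border of the major histocompatibility complex only Kifc1 starts inside the interval.

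Whether the genotype effect differed between tissues or sexes was tested with interaction terms. Between cerebellum and male brain 0 of 58 flanking genes passed edgeR's adjusted p (0.26% of all genes) and 8 had an unadjusted p under 0.05, against 9.72% of all genes. DESeq2 called 0, with 6 under 0.05. Between the sexes 0 of 59 passed (0.0% of all genes), 2 had an unadjusted p under 0.05 (against 3.98% of all genes), and DESeq2 called 0, with 1 under 0.05. Notch3, a receptor of vascular smooth muscle and neural progenitors that starts 222.6 kb from Wiz, had 28.5, 28.7 and 28.3 CPM in Wiz+/+ and 26.5, 26.6 and 27.5 CPM in Wiz MommeD30/+ cerebellum, and 79.5, 90.6 and 88.8 CPM against 94.99, 94.1 and 87.1 CPM in male brain, where the groups overlapped. The difference between these effects was -0.17 (95% interval -0.32 to -0.02, adjusted p = 0.420, edgeR). An antisense RNA gene, Gm17276, shares exonic bases with Notch3.

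Set beside these small genotype differences, the flanking genes differed widely between Wiz+/+ adult cerebellum and Wiz+/+ male E13.5 brain, samples that differ in age as well as tissue, so that age and tissue cannot be told apart. Of 57 tested, 41 passed both limits in edgeR, 19 higher and 22 lower in the cerebellum, where 69.3% of all genes passed, 36.4% as higher and 32.9% as lower. DESeq2 passed 40. By the adjusted p alone 54 passed against 86.5% of all genes. The median absolute log2 fold change of 0.83 was close to the 0.84 of all genes. Wiz had a log2 fold change of -0.78 and passed the test as well.

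The 2 genes most raised in the cerebellum were Tmprss3 and Cyp4f14, and both passed the filter on low counts only through their cerebellum counts. Tmprss3 had 116, 85 and 77 counts in the cerebellum and 2, 0 and 1 in male brain, a ratio of 119 with an exact counting interval of 40.3 to 581. Cyp4f14, a leukotriene hydroxylase, had 879 counts over the 3 cerebellum libraries and 14 over the 3 of male brain, where its level was 0.06, 0.12 and 0.25 CPM. The ratio was 80.7 with an exact counting interval of 47.8 to 148. The counting intervals cover counting error only. All libraries of the 2 tissues were far apart for both genes. Within the Cyp4f family Cyp4f13 (1.57) and Cyp4f15 (0.71) were also higher in the cerebellum on the log2 scale, while Cyp4f17 (-1.06) and Cyp4f16 (-0.83) were lower. All 5 tested members passed both limits, against 69.3% of all genes, and Cyp4f14 entered the test through its cerebellum counts.

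Of the 8 tested metabolic genes all passed both limits, 6 of them higher in the cerebellum, against 69.3% of all genes and 36.4% as higher. Abcg1, a sterol transporter, had 121, 118 and 117 CPM there and 23.3, 19.6 and 22.0 CPM in male brain (log2 fold change 2.44, SE 0.05, adjusted p = 1.83e-15, edgeR). Cbs, with 29.1, 27.8 and 28.8 CPM against 4.09, 4.56 and 4.19 CPM, had a log2 fold change of 2.76, and Pde9a and Ndufv3 had 1.02 and 1.18. Angptl4 was lower in the cerebellum, with 1.08, 1.33 and 1.47 CPM against 8.35, 7.55 and 7.58 CPM (log2 fold change -2.60), and so was the sugar phosphate exchanger gene Slc37a1 (-1.53). Morc2b and the antisense gene Gm17276 were higher by 2.89 and 2.83 on the log2 scale at low levels. Morc2b passed the filter on low counts only through its cerebellum counts.

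The zinc finger genes were mostly lower in the cerebellum. Of the 14, 12 passed the adjusted p as lower and 1 as higher, against 43.6% and 42.9% of all genes, and with the fold limits 6 were lower and 1, Zfp422-ps, was higher, against 32.9% and 36.4% of all genes. Zfp811 had 5.23, 5.02 and 6.29 CPM in the cerebellum and 55.5, 53.9 and 57.6 CPM in male brain, the largest difference of the cluster (log2 fold change -3.33, SE 0.07). Zfp81 followed with -1.23, Zfp563 with -0.89 and Zfp799 with -0.72, while Zfp101 had -0.69 and Zfp871 -0.68. On the chromosome Zfp811, with a fold change of 0.0993, lies between Zfp871 and Zfp799. Sik1 (12.1, 12.3 and 12.8 CPM against 48.5, 46.8 and 46.8 CPM, log2 fold change -1.93), Notch3 (-1.59) and Kifc1 (-1.58) were lower too.

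**Figure D5:**
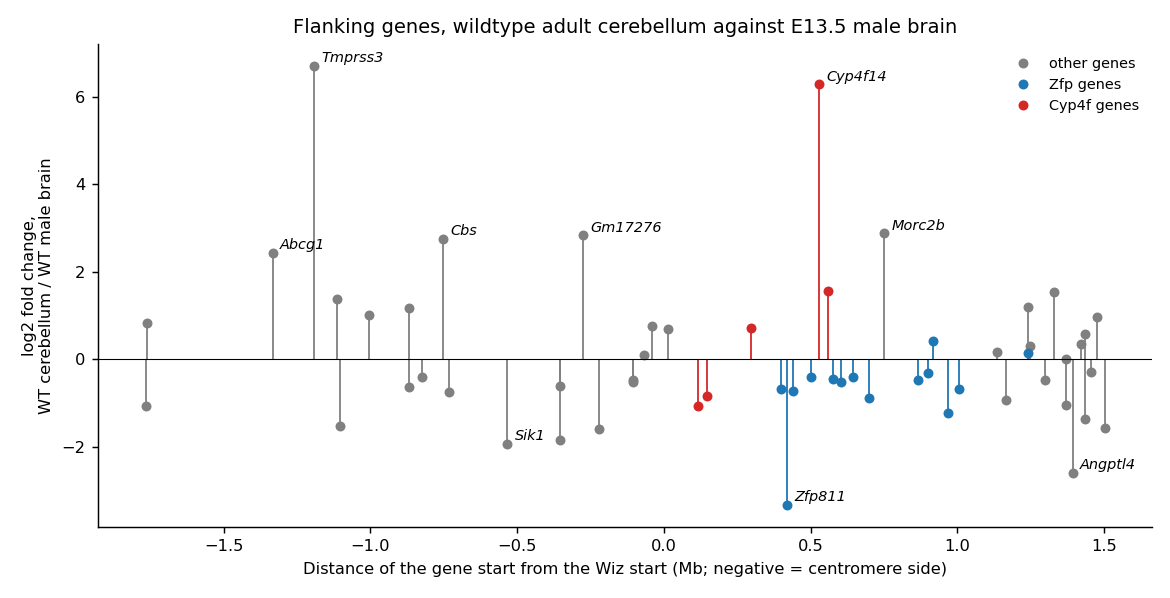
Log2 fold change between Wiz+/+ adult cerebellum and Wiz+/+ male E13.5 brain (y axis) of each tested flanking gene against the distance of its 5′ end from that of Wiz (x axis, in Mb), with Zfp genes in blue and Cyp4f genes in red. Values run from -3.33 for Zfp811 to 6.71 for Tmprss3, and higher and lower genes are found on both sides of Wiz. Tmprss3, Cyp4f14 and Morc2b passed the filter on low counts only through their cerebellum counts, and Hsf2bp only through its brain counts.

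Neighbours with shared promoter regions could also differ. Wdr4, of the tRNA methyltransferase complex, and Ndufv3, a subunit of complex I, start 134 bases apart on opposite strands. Wdr4 had 34.3, 31.4 and 32.7 CPM in Wiz+/+ cerebellum and 51.3, 49.4 and 51.8 CPM in male brain, and Ndufv3 had 76.2, 74.6 and 72.4 CPM against 33.6, 32.5 and 32.7 CPM. They moved in opposite directions between the tissues, with log2 fold changes of -0.63 and 1.18. With genotype they had -0.02 and -0.01 in the cerebellum, 0.05 and -0.02 in male brain, and 0.02 and -0.12 in female brain, none past the test. Rps28 and Ndufa7, another complex I subunit, start 9 bases apart and had -1.36 and 0.58 between the tissues. The bases between the GENCODE starts of Wdr4 and Ndufv3 (GRCm38, chr17:31519981-31520114, plus strand) follow as an example of such a shared region, with the CCAAT box in capitals.
Wdr4-Ndufv3 gap: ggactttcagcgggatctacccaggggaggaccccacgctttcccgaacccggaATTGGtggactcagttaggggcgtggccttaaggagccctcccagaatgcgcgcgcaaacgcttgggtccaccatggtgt

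RefSeq promoter windows of GRCm38, from 250 bases before to 50 bases after a start, were matched to 55 of the 96 genes by symbol, with 68 windows. A GC box was found in 42.6% of these windows against 35.7% of all 32851 windows, and a CCAAT box in 58.8% against 37.4%. Windows of neighbouring starts overlap, so the same site can be counted more than once. A match is a description of the letters and not evidence of binding.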

How the data were processed

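For each of 16 RNA-seq libraries the authors deposited 1 table of unnormalised read counts by Ensembl gene identifier. Per the labels and the study's methods, the authors mapped polyA reads to mm10 with TopHat2 (2.0.11) and counted them with HTSeq (0.6.1). The counting mode, strand setting and annotation release are not given in the sources used here. The 3 ChIP-seq samples were not analysed here. Positions and symbols came from GENCODE M21 of GRCm38, which held 40254 of the 41388 identifiers. The others took at most 0.171% of a library's counts.

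Each comparison was fitted on its own libraries and all genes with edgeR 4.0.16 in R 4.3.3, using TMM, filterByExpr with a minimum count of 10, the quasi-likelihood test and Benjamini-Hochberg adjustment over all genes tested. Intervals are 95% and use the model's degrees of freedom. CPM values share TMM factors over the 16 libraries. Distances join 5′ ends. DESeq2 1.42.0 was an alternative, beside its size factors, other low-count filters, the replicate number as a block, a narrower interval and leaving out each library. Both tools were tested on simulated counts. Tables were made with Python 3.11.15, pandas 2.3.3 and numpy 2.4.6, and exact counting intervals with scipy 1.17.1. Depth ran from 16386029 to 50459755 counts.

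Named genes were those past the adjusted p in a genotype comparison, the 8 nearest tested genes on each side, the 5 with the smallest p in each genotype comparison and interaction, the 10 with the largest tissue difference and the 2 highest of each list. One gene that met this rule is not reported here. Others named for pairing, low counts or position were chosen after values were seen. The genes and lists were chosen with earlier results of these data known. Whether numbers pair samples was checked by correlating deviations from group means between genotypes: the mean r for the same number was -0.04 in cerebellum, -0.13 in male brain and -0.05 in female brain, so they were not treated as pairs.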

Additional observations from a re-analysis of the deposited data

Results flagged for a closer look

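For 3 flanking genes every Wiz MommeD30/+ library lay on one side of every Wiz+/+ library in the cerebellum and on the other side in female brain. This was seen for 3 of 53 flanking genes tested in both sets and for 3.36% of all 15429 such genes, and the difference between these sets was not tested. For Notch3 the female log2 fold change minus that of the cerebellum was 0.17, for Zfp81 it was -0.17 and for Kifc1 it was 0.47. The cerebellum and female brain differ in sex and age as well as tissue.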

How the results depend on the processing

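In the cerebellum the count of flanking genes past both limits, 1 in edgeR's quasi-likelihood test, was 0 to 3 when each library was left out, 2 by the adjusted p alone and 0 among genes within 1 Mb of Wiz. It was 0 without the first or second Wiz MommeD30/+ or the third Wiz+/+ library, where Tmprss3 lost its call, and 3 without the second Wiz+/+ library, where Zfp871 (0.41) and Morc2b (1.04) also passed. Within 1 Mb fewer genes are counted, and the Wiz+/+ tissue comparison fell from 41 to 24 genes there for the same reason. With the tissue comparison's libraries left out in turn its count ran from 39 to 44. In the male, female and joint brain fits and both interactions the count was 0 under every alternative run. The median log2 fold change over flanking genes moved by less than the spread between libraries in every alternative. Of 1414 values of named flanking genes under alternatives, 0 that passed the adjusted p changed sign. By the adjusted p alone, without the fold limits, 4 stopped passing (Tmprss3 in 3 and Zfp871 in 1) and 3 began to pass (Morc2b in 1 and Pde9a in 2). A further 42, most of them in female brain with a library left out, moved by more than the spread between libraries. Rasal3 in female brain went from -0.34 to -0.03 without the first Wiz+/+ library.

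With the replicate number as a block, 1 flanking gene passed in the cerebellum, 0 in each brain fit and 41 in the tissue comparison, and the median log2 fold change was 0.02 in the cerebellum. Wiz itself lost its female call with the block (-0.57, adjusted p = 0.0560, edgeR). The same-number correlations were below 0 in all 3 sets and gave no sign of pairing. With only 2 or 3 numbers per set, this check cannot exclude that the numbers pair the samples.

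The precision is limited for genes with low counts such as Rasal3 and Cyp4f39, and in female brain by 2 mice per genotype.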
